A study of Rattus norvegicus with 14 samples.

Results

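Malat1 and Neat1 are long noncoding RNAs that stay in the nucleus, and both carried transcription start sites (TSSs) near SOX10-bound promoters of rat sciatic nerve. All TSSs that the deposited table assigns to either symbol were taken, which gave 66 TSSs of Malat1 and 39 of Neat1, or 105 of 4993 TSSs in all. The TSSs of each gene were taken by symbol alone, with no measured value used. Both genes themselves were chosen with earlier results of these data known. TSSs were measured with Tn5Prime, which reads the 5′ ends of transcripts, in 14 rat libraries of 5 groups. The 2 sciatic nerve libraries came from wild-type adult rats aged 6 to 9 months, with 1 nerve per library. Wild-type primary Schwann cells, first grown with 10% serum, 10 nM neuregulin and 2 uM forskolin, were moved to 5% serum without either factor and then given vehicle (control, 3 libraries) or 250 uM CPT-cAMP for 3 days (cAMP, 3 libraries). CPT-cAMP is a cell-permeable cAMP analog used to drive Schwann cells towards a myelinating state. S16, an immortalised rat Schwann cell line, was grown in 10% serum as unmodified parental cells (2 libraries from 2 RNA samples) and as ΔSOX10 cells (4 libraries, each of 1 clone edited with CRISPR/Cas9 to frameshift alleles of Sox10).

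In textbook accounts, MALAT1 is among the most abundant noncoding RNAs of vertebrate cells and gathers in nuclear speckles, where splicing factors are stored. NEAT1 is the scaffold of paraspeckles, nuclear bodies built on this RNA by proteins such as NONO and SFPQ. NEAT1 is made as a short polyadenylated form and a long form from the same promoter, and the ends of MALAT1 and of long NEAT1 are cut by RNase P instead of being polyadenylated. In these libraries the reverse transcription was primed with oligo-dT, and what this does to the capture of RNAs without a poly(A) tail was not tested.

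The total reads per library ranged from 29895599 to 79940274, and between 28.7% and 37.0% of them fell in the 4993 TSSs. Nerve and S16 libraries were sequenced on 1 instrument type and primary cell libraries on another, so nerve against primary cells cannot be told apart from the instrument. The Sox10 TSSs of the table summed to 77.5 and 90.7 RPM (reads of the TSS scaled to library size) in parental cells and to between 0 and 0.114 RPM in the 4 ΔSOX10 clones. Of 13 Schwann cell markers, 11 were in the table, and all 11 averaged over 1 RPM in nerve, 8 in control, 10 in cAMP, 10 in parental and 7 in ΔSOX10 cells. Prx, a myelin gene, was at 0 in control and parental cells. Of 11 fibroblast and perineurial markers 3 were in the table, and their summed level was 185 to 189 RPM in nerve, 806 to 909 in control, 374 to 470 in cAMP, 2255 to 2829 in parental and 2971 to 5302 in ΔSOX10 libraries, nearly all of it Col1a1 in the cultures. The only macrophage marker in the table, Csf1r, was between 1.07 and 4.82 RPM in nerve and at 0 in primary cells, and no endothelial or adipocyte marker was in the table.

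The 2 genes lie side by side on the minus strand of chromosome 1 (rat genome build rn5), with their most upstream TSSs 45.9 kb apart. TSSs are numbered here from the 5′ end of each gene. Malat1 TSS 1 is 42 bp wide and spans chr1:228091165-228091206, and the last of the 66 begins 5890 bp downstream, at chr1:228085312-228085316. Malat1 had more TSSs in the table than any other gene, and Neat1, with 39, had more than Vim with 35 and Cnp with 30. All 66 overlap 1 H3K4me3 peak of nerve, a mark of active promoters, which covers 7628 bp (chr1:228084496-228092123). The SOX10 peak listed with them is 400 bp wide (chr1:228091000-228091399) and overlaps TSSs 1 to 8.

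Neat1 TSS 1 spans only 2 bp (chr1:228137098-228137099), and the next TSS begins 1294 bp downstream. The last of the 39 is at chr1:228130370-228130374, 6725 bp from the first. The H3K4me3 peak covers 9701 bp (chr1:228130512-228140212) and holds 36 of the 39, with the last 3 just beyond it. The SOX10 peak is 1800 bp wide (chr1:228136000-228137799) and overlaps TSS 1 alone. Thus 8.57% of the TSSs of both genes overlap their SOX10 peak, against 52.6% of the other TSSs in the table.

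Most TSSs of both genes were narrow. Of the 105, 75 (71.4%) were 5 bp wide or less, against 9.96% of the other TSSs, and the median width was 3 bp against 59 bp. Narrow clusters were also found in the other genes with 20 or more TSSs, whose median widths ran from 3 bp in Actb to 4.5 bp in Cnp. A further 10 TSSs that carry no symbol are listed with the same H3K4me3 peaks, 8 of them on the Neat1 strand beside or among its TSSs. Those 8 summed to 28.5 RPM in nerve and did not enter the Neat1 values below.

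In sciatic nerve, Malat1 was carried almost wholly by its most upstream TSS. Malat1 TSS 1 was at 14489.7 and 12366 RPM in the 2 nerves and ranked 3 and 4 among the 4993 TSSs. It made up 96.5% ± 0.56 (SD, n = 2) of the Malat1 sum. The other 65 TSSs averaged between 1.89 and 66.9 RPM in nerve, with a median of 4.16 RPM. Over these 65 the 2 nerves had a Pearson correlation of 0.42 on the log2 scale, against 0.84 over all TSSs of other genes, given as a description because the TSSs share their libraries.

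The highest downstream TSSs of Malat1 crowd behind the first one. Malat1 TSS 7 (chr1:228091028-228091034) was at 63.7 and 70.1 RPM in nerve, 15.3, 28.4 and 22.4 in control, 11.5, 12.5 and 17.5 in cAMP, 4.95 and 8.53 in parental, and 8.64, 16.8, 13.6 and 21.7 in the ΔSOX10 clones. Malat1 TSS 6 (chr1:228091077-228091081) was at 32.9 and 49.8 RPM in nerve, 10.8, 14.1 and 10.2 in control, 6.83, 4.89 and 3.67 in cAMP, 4.16 and 1.97 in parental, and 2.93, 7.83, 6.86 and 7.87 in the clones. Both TSSs were highest in nerve and lowest in a parental library, and both lie inside the SOX10 peak with TSS 1. Malat1 TSS 4 (chr1:228091115-228091116) ranged from 0.79 RPM in 1 ΔSOX10 clone to 18.3 RPM in 1 nerve, and its culture groups overlapped. Without TSS 1, the first 1 kb of the gene held 255 ± 38.8 RPM in nerve (mean ± SD, n = 2), the second 109 ± 3.11 and the sixth 18.3 ± 11.8, so that the signal thinned out along the transcript.

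Neat1 was far lower and was spread along the gene in nerve. Neat1 TSS 1 was at 86.3 and 72.0 RPM, which was 28.7% ± 0.87 (SD, n = 2) of the Neat1 sum. The other 38 TSSs averaged between 2.01 and 39.5 RPM in nerve, with a median of 3.25 RPM. Between 2 and 3 kb from TSS 1 lay 17 of them, and these held 116 ± 31.4 RPM in nerve (n = 2), more than TSS 1 itself. The highest was Neat1 TSS 18 (chr1:228134470-228134516), at 57.3 and 21.7 RPM in the 2 nerves, 9.65, 9.40 and 8.15 in control, 9.73, 16.8 and 14.1 in cAMP, 7.19 and 7.26 in parental, and 10.1, 6.74, 8.72 and 9.06 in the clones. Neat1 TSS 18 thus differed by over 2-fold between the 2 nerves and had overlapping values in control and S16 libraries. Neat1 TSS 21 was at 12.6 and 14.8 RPM in nerve and between 0.25 and 5.39 RPM in the cultures.

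**Figure D1:**
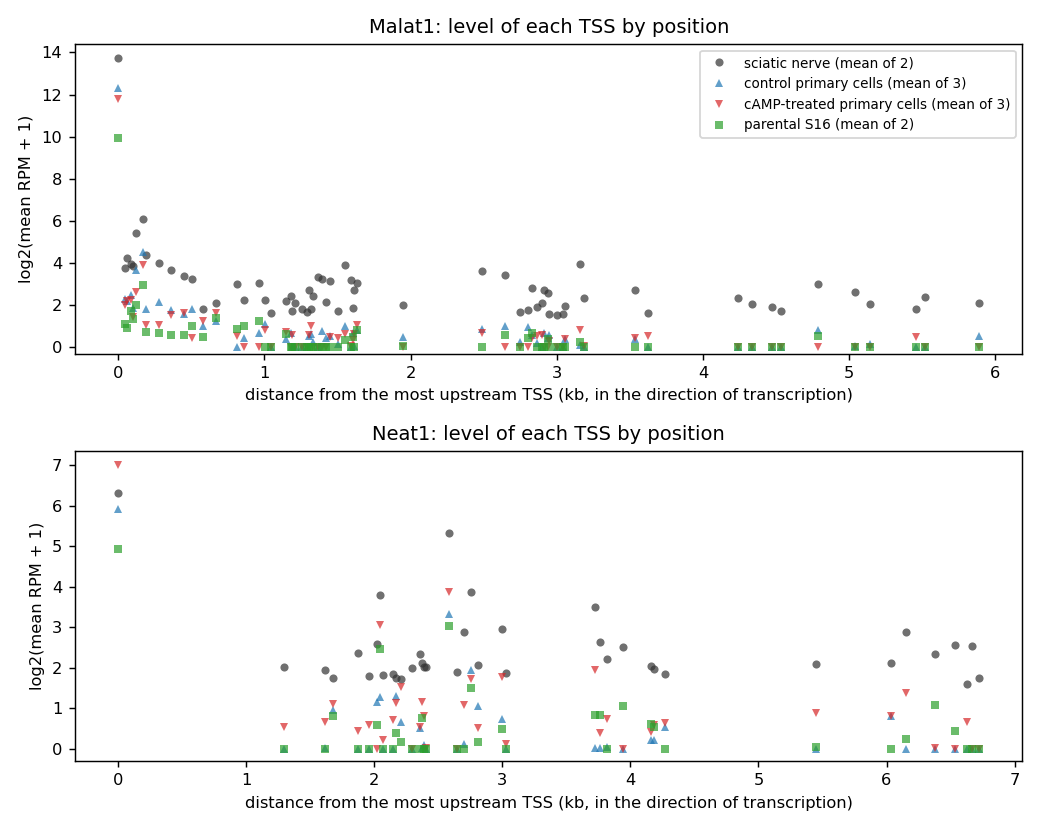
Each point is the mean level of 1 TSS as log2(RPM + 1), plotted by its distance in kb from the most upstream TSS, for Malat1 (66 TSSs, top) and Neat1 (39 TSSs, bottom) in nerve, control, cAMP and parental S16 libraries. Malat1 has 1 dominant TSS in every group, whereas Neat1 in nerve has a second rise between 2 and 3 kb, and most downstream TSSs are near 0 in the cultures.

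The downstream TSSs were often at 0 in the cultures. The table holds only TSSs called in sciatic nerve, so that each of them had to be seen there. Of the 66 Malat1 TSSs, 62 were above 0 in each nerve, but between 20 and 33 in the 12 culture libraries. All 39 Neat1 TSSs were above 0 in both nerves, and between 10 and 24 in the cultures. Pooled over both genes without the TSSs 1, 59.9% of the 1236 values in the cultures were 0. For all other TSSs it was 19.6%. In nerve the downstream medians were 4.16 RPM in Malat1 and 3.25 RPM in Neat1, against 6.78 RPM over all TSSs. The comparison was not matched on level, and low TSSs entered through their call in nerve, so that nothing is read from it. Where a downstream value in the cultures was above 0, it stood for a median of 55.5 reads. Of these 496 values, 70 stood for fewer than 10 reads. A downstream TSS was thus often at 0 in 1 library and well covered in its replicate. The reads carry no stated molecular identifiers, and the number of separate RNA molecules behind them is not known.

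The summed level of Malat1 followed the order nerve, control, cAMP, ΔSOX10 and parental. It was 14955.5 and 12869.6 RPM in nerve, 4165, 5602 and 5891 RPM in control, and 3470.45, 3403 and 4039 RPM in cAMP libraries. In S16 cells it was 1055 and 977 RPM in parental libraries and 1315, 2324, 1949 and 2768 RPM in the ΔSOX10 clones 1-1, 1-2, 2-1 and 2-2. No 2 neighbours in this order overlapped, although the lowest control and the highest cAMP library lay close together. Malat1 TSS 1 ranked between 4 and 8 of all TSSs in the 6 primary cell libraries, but between 62 and 71 in parental cells and between 12 and 37 in the clones. Nerve exceeded control 2.67-fold and parental cells 13.7-fold in group means. In these bulk samples, fewer cells of a type and less RNA per cell cannot be told apart.

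The summed level of Neat1 followed another order, from nerve through cAMP, control and ΔSOX10 to parental. It was 307.5 and 245.6 RPM in nerve, 83.4, 74.3 and 83.8 RPM in control, and 149.9, 166.8 and 200.5 RPM in cAMP libraries. In S16 cells it was 59.3 and 43.0 RPM in parental libraries and 44.1, 63.5, 70.5 and 63.6 RPM in the clones. ΔSOX10 and parental libraries overlapped, the other neighbours did not, and control and ΔSOX10 were close. Nerve exceeded control 3.44-fold and cAMP 1.604-fold in group means. The nerve sum came mostly from downstream TSSs listed through their call in nerve, so nothing is read from the place of nerve in this order. For Neat1 TSS 1 alone, nerve exceeded control 1.34-fold and was at 0.62 of cAMP.

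**Figure D2:**
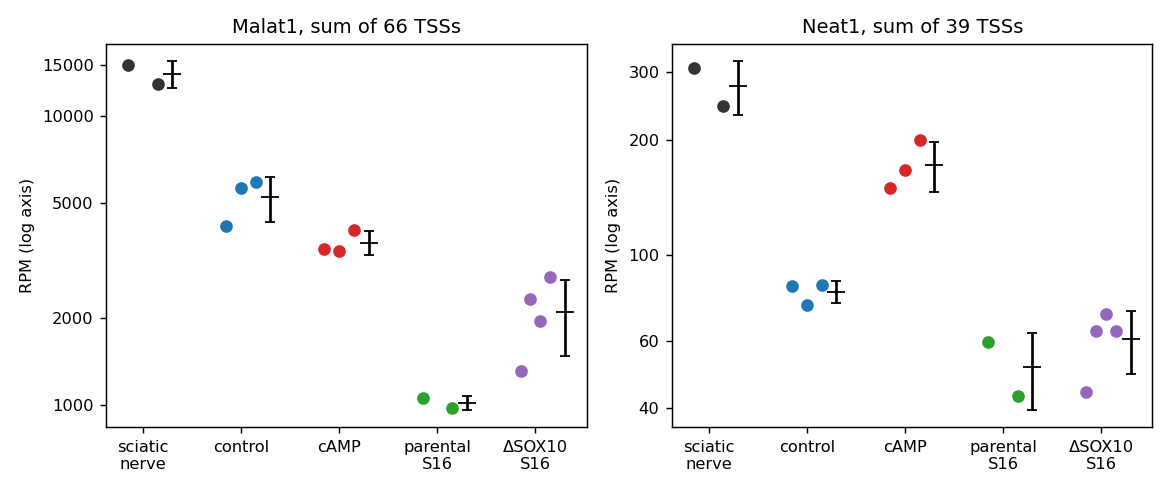
Summed RPM of all TSSs of Malat1 (left) and Neat1 (right) per library on log axes, with points for libraries and the horizontal mark with bars for the group mean ± SD (n = 2 for nerve and parental, 3 for control and cAMP, 4 for ΔSOX10). Malat1 falls from nerve to parental S16 cells, and the 3 cAMP libraries lie below the controls for Malat1 but above them for Neat1.

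Over the listed TSSs, the split of Neat1 between TSS 1 and the rest differed between nerve and cultures. Neat1 TSS 1 was at 60.5, 53.2 and 63.6 RPM in control and at 115.5, 116.6 and 148.6 RPM in cAMP libraries, so that all 3 cAMP values exceeded both nerves. The other 38 TSSs summed to 221 and 174 RPM in nerve, but to between 20.1 and 22.8 RPM in control and between 34.5 and 51.9 RPM in cAMP libraries. TSS 1 therefore made up 73.4% ± 2.3 of the Neat1 sum in control (n = 3), 73.7% ± 3.6 in cAMP (n = 3), 57.2% ± 3.5 in parental (n = 2) and 59.8% ± 5.9 in ΔSOX10 libraries (n = 4), against 28.7% in nerve. Wilson intervals at 95% on these shares were 0.734 to 2.39 percentage points to either side in single libraries and cover counting error only. Because every downstream TSS had to be called in nerve to be listed, starts used only in culture are not counted in these shares. This favours a higher downstream sum and a lower share of TSS 1 in nerve. Nothing is therefore read from the contrast of nerve and cultures in these values.

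**Figure D3:**
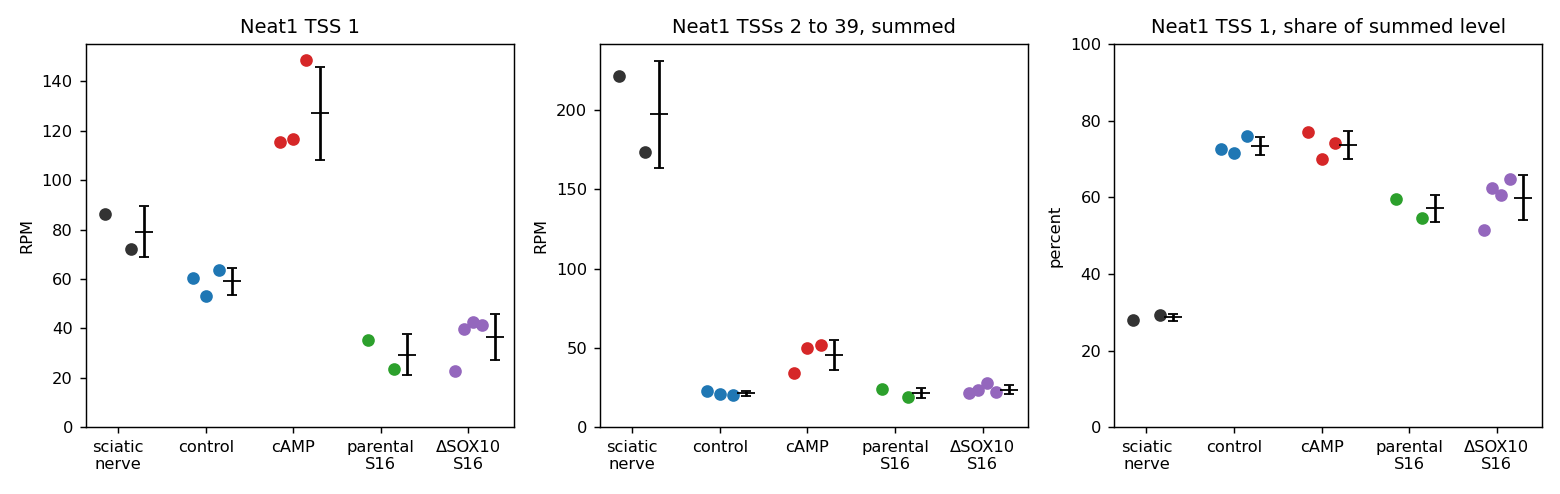
Level of Neat1 TSS 1 (left, RPM), the sum of Neat1 TSSs 2 to 39 (middle, RPM) and the share of TSS 1 in the Neat1 sum (right, percent) per library, with the group mean ± SD beside the points and n as in the plot of summed levels. TSS 1 is highest in cAMP libraries, the downstream sum is highest in nerve, and the share is near 29% in nerve and above 50% in every culture. Downstream TSSs were listed through their call in nerve, which favours a higher sum and a lower share there.

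Against control cells, 87 of the 105 TSSs (53 of Malat1 and 34 of Neat1) were higher in both nerves than in all 3 controls, where 28.5% of all TSSs in the table were. The median difference of nerve minus control on the log2(RPM + 1) scale was 1.89 over the 105 TSSs and -0.10 over all TSSs. Low TSSs were listed only because they were called in nerve, which favours higher values there, so that nothing is read from this count or median. Parental S16 cells and nerve were tested with limma, and both summed levels fell, Malat1 by 3.77 on the log2 scale (SE 0.13, adjusted p = 7.14e-08) and Neat1 by 2.42 (SE 0.21, adjusted p = 1.50e-05). The Neat1 sum in nerve came mostly from downstream TSSs listed through their call in nerve, and Neat1 TSS 1 alone fell by 1.42 (SE 0.27, limma adjusted p = 0.00728), or 2.69-fold by the group means against 5.41-fold for the sum. For Malat1 TSS 1 alone the decrease was 13.6-fold, against 13.7-fold for the sum. Among all genes tested in that comparison, 12.1% were called lower and 37.7% higher in parental cells, and the median gene stood at 0.61. With libraries rescaled by the median ratio, 46.6% of called genes were higher instead of 75.7%, and the decreases were larger, at -4.54 for Malat1 and -3.18 for Neat1. Of single TSSs, 48 of 55 tested in Malat1 and 29 of 37 in Neat1 were called lower and none higher, where 21.1% of all TSSs were called lower and 23.8% higher. Many of these TSSs passed the filter through the nerve alone and had to be lower in culture, so that nothing is read from this count, which came to between 10 and 34 with 1 library left out.

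CPT-cAMP moved the 2 genes in opposite directions. Malat1 fell and Neat1 rose, and for neither gene did the 3 cAMP libraries overlap the 3 controls. The comparison asked which SOX10-associated TSSs change as primary Schwann cells differentiate in culture. Malat1 summed to 5219 ± 925 RPM in control and 3638 ± 349 RPM in cAMP libraries (mean ± SD over 3 libraries). This was a log2 fold change of -0.51 (SE 0.08, limma adjusted p = 3.84e-05). The SE is drawn by limma towards the spread of genes of similar level, and the Malat1 libraries alone spread more widely. Neat1 summed to 80.5 ± 5.3 RPM in control and 172 ± 25.7 RPM in cAMP libraries, a log2 fold change of 1.08 (SE 0.14, limma adjusted p = 1.09e-06). Among all 2853 genes tested, 14.6% were called higher and 14.7% lower, 40.8% had groups that did not overlap, and the median log2 fold change was -0.04. The ratio of the Malat1 sum to the Neat1 sum fell from 49.97, 75.4 and 70.3 in control to 23.1, 20.4 and 20.2 in cAMP libraries, a 3.03-fold difference (exact two-sided permutation test, p = 0.1, the smallest that 3 against 3 allows, 0.133 adjusted over 2 comparisons). This ratio was chosen after its values were seen.

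The same split was seen in the most upstream TSSs. Malat1 TSS 1 was at 4095, 5509 and 5816 RPM in control and 3419, 3353 and 3984 RPM in cAMP libraries, a log2 fold change of -0.51 (SE 0.09, limma adjusted p = 0.000148). Neat1 TSS 1 was 2.15-fold higher in cAMP libraries by the group means, a log2 fold change of 1.08 (SE 0.16, limma adjusted p = 1.37e-05). Across all TSSs tested, 12.9% were called higher and 11% lower. Of the 24 Malat1 TSSs that passed the filter, TSS 1 was the only one called. Of the 24 fitted changes 18 were below 0, where 48.5% of all TSSs tested were. TSSs of a gene share their libraries, so nothing is read from this count. Malat1 TSS 6 had groups that did not overlap, as did 36.6% of all TSSs tested. Its log2 fold change was -1.07 (limma adjusted p = 0.0716), and that of TSS 7 was -0.62 (limma adjusted p = 0.188), both short of the threshold.

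Of the 14 Neat1 TSSs that passed the filter, 3 were called, all higher in cAMP libraries. Besides TSS 1 these were TSS 8 and TSS 25, both low. Of the 14 fitted changes 11 were above 0, whereas 48.5% of all TSSs tested were below 0. Nothing is read from this count, because TSSs of a gene share their libraries. Neat1 TSS 8 (chr1:228135038-228135053) was at 0.05, 0.18 and 4.06 RPM in control and 11.9, 6.81 and 3.39 RPM in cAMP libraries, and the groups overlapped (log2 fold change 2.04, SE 0.64, limma adjusted p = 0.0229). Its call was lost without control 1 (adjusted p = 0.108), control 2 (0.0939), cAMP 1 (0.157) or cAMP 2 (0.101), in edgeR's quasi-likelihood test (0.270) and without the filter on low values (0.0773). Neat1 TSS 25 (chr1:228133355-228133372) was at no more than 1 read in each control and at 1.66, 2.60 and 4.31 RPM in cAMP libraries. With the controls set to a floor of 3 reads per library, the cAMP mean was 54.8-fold higher. The size of this change depended on the setting, with log2 fold changes from 0.64 at a pseudocount of 5 to 7.77 in edgeR. In the main fit the log2 fold change was 1.88 (SE 0.59, limma adjusted p = 0.0237). That call was lost without control 1 (limma adjusted p = 0.0590), control 2 (0.0621), control 3 (0.0594) or cAMP 3 (0.0785).

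The share of each sum that came from inside the SOX10 peak differed between the conditions by less than the SD of either. For Malat1 it was 99.4% ± 0.13 in control and 99.4% ± 0.16 in cAMP libraries, a difference of -0.01 percentage points (exact two-sided permutation test, p = 0.9). For Neat1, whose only TSS inside the peak is TSS 1, it differed by 0.33 percentage points (exact two-sided permutation test, p = 1). No p under 0.1 is possible with 3 against 3, and adjusted over 4 such tests both were 1. The summed fibroblast markers, nearly all Col1a1, were also lower in cAMP libraries. Itgb4 and Pdgfra went the other way, from 1.08 to 4.30 RPM and from 0 to 0.11 RPM by group means. The part of these markers in the change of Malat1 or Neat1 was not tested.

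**Figure D4:**
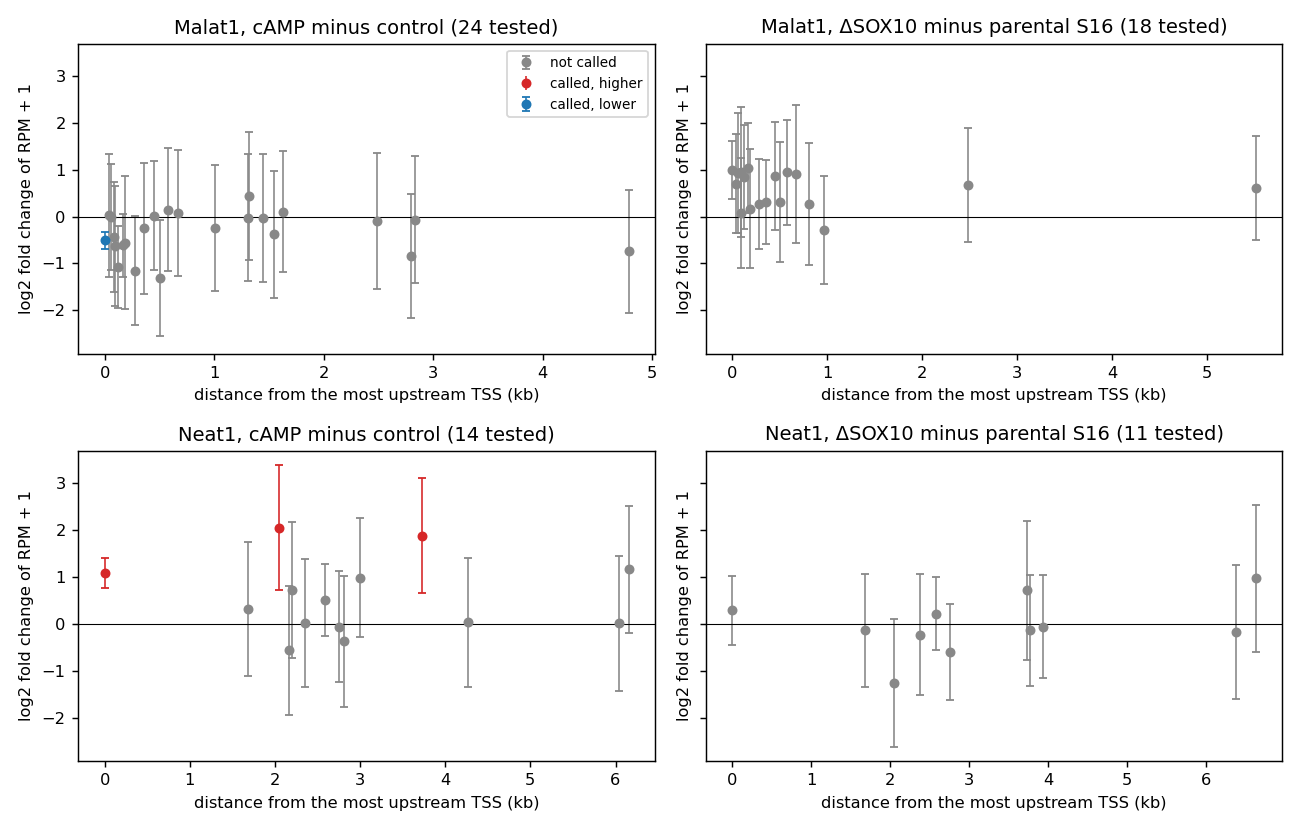
Log2 fold change of RPM + 1 (points, with 95% confidence intervals from limma) of each TSS that passed the filter, by distance in kb from the most upstream TSS, for cAMP minus control (left) and ΔSOX10 minus parental S16 (right), with Malat1 on top and Neat1 below. For cAMP, Malat1 TSS 1 is the only TSS called lower and 3 Neat1 TSSs are called higher, and no TSS is called in ΔSOX10 cells.

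Neither gene was called lower in S16 cells without SOX10, and Malat1 was called higher. The comparison asked which TSSs near SOX10 peaks depend on SOX10. Malat1 summed to 1016 ± 54.9 RPM in parental libraries (n = 2) and 2089 ± 615 RPM in the 4 ΔSOX10 clones, all of which exceeded both parental libraries. Of all genes tested, 30.1% likewise had groups that did not overlap. The log2 fold change of Malat1 was 0.99 (SE 0.26, 95% interval 0.41 to 1.57), and it passed the threshold narrowly (limma adjusted p = 0.0433, and edgeR's quasi-likelihood test, adjusted p = 0.0427). The call was lost without parental 1 (limma adjusted p = 0.143), parental 2 (0.223), clone 1-2 (0.0842), clone 2-1 (0.0739) or clone 2-2 (0.0574), and held without clone 1-1 (0.00563). Neat1 summed to 51.2 ± 11.6 RPM in parental libraries and 60.4 ± 11.4 RPM in the clones, a log2 fold change of 0.23 with a 95% interval from -0.34 to 0.81 (limma adjusted p = 0.687).

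Calls in that comparison ran mostly the other way. Of all genes tested, 2.3% were called higher and 5.92% lower in ΔSOX10 cells, and the median log2 fold change was -0.18. With median-ratio scaling the median gene was at -0.04, 38.7% of called genes were higher instead of 27.9%, and Malat1 stood at 1.139 and Neat1 at 0.38. In Malat1 the clones differed among themselves more than the parental libraries did, from 1315 RPM in clone 1-1 to 2768 RPM in clone 2-2, whereas the SDs of Neat1 were close. The summed fibroblast markers, nearly all Col1a1, were higher in every ΔSOX10 clone than in both parental libraries. Pdgfra went the other way, from 0.98 RPM in parental to 0.16 RPM in ΔSOX10 libraries by group means, and Itgb4 averaged 0 in both. The part of these markers in the change of Malat1 was not tested.

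No single TSS of either gene was called in ΔSOX10 cells by limma, over 18 tested in Malat1 and 11 in Neat1, where 1.65% of all TSSs were called higher and 6.55% lower. Unadjusted p-values were under 0.05 for 2 of the 18 and for 0 of the 11, and edgeR's quasi-likelihood test called 0. Those 2 were Malat1 TSS 1, at 1029 and 946 RPM in parental libraries and 1283, 2262, 1894 and 2696 RPM in the clones (log2 fold change 0.99, SE 0.27, limma adjusted p = 0.0633), and Malat1 TSS 7 (log2 fold change 1.04, SE 0.42, limma adjusted p = 0.212). Both had groups that did not overlap, as did 29.4% of all TSSs tested. Of the 18 fitted changes of Malat1 17 were above 0, with a median of 0.69, and of the 11 of Neat1 4 were above 0, with a median of -0.14, against -0.18 over all TSSs. Across all TSSs tested 63.6% were below 0. TSSs of a gene share their libraries, so nothing is read from these counts. Neat1 TSS 1, the only Neat1 TSS in a SOX10 peak, was at 35.4 and 23.5 RPM in parental libraries and 22.7, 39.7, 42.7 and 41.2 RPM in the clones (log2 fold change 0.29, limma 95% interval -0.44 to 1.02). The groups overlapped.

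Shares inside the SOX10 peak were 98.8% ± 0.20 in parental and 98.9% ± 0.17 in ΔSOX10 libraries for Malat1 (exact two-sided permutation test, p = 0.533). For Neat1 they differed by 2.66 percentage points (exact two-sided permutation test, p = 0.667), and adjusted over the 4 tests both were 1. The ratio of Malat1 to Neat1 was 17.8 and 22.7 in parental libraries and 29.8, 36.6, 27.6 and 43.5 in the clones, with no overlap (exact two-sided permutation test, p = 0.133, the smallest given by 2 against 4 here).

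Genes that act with these RNAs were followed as summed levels per gene. Of 27 paraspeckle proteins, 14 were in the table and tested. In cAMP libraries 2 of the 14 were called higher and 3 lower, near the 14.6% and 14.7% of all genes, and the median of the 14 log2 fold changes was -0.13 against -0.04 over all genes. Hnrnpa1, a splicing regulator with many near-identical copies in mammalian genomes, rose from 108 ± 5.9 to 234 ± 29.7 RPM (log2 fold change 1.10, limma adjusted p = 1.24e-07). Tardbp, which encodes the RNA-binding protein TDP-43, rose from 35.5 ± 7.2 to 62.3 ± 4.7 RPM (limma adjusted p = 0.00372). Cirbp, a cold-inducible RNA-binding protein, fell from 302 ± 36.2 to 132 ± 9.9 RPM (log2 fold change -1.18, limma adjusted p = 1.13e-08), and Zc3h6, a zinc finger protein, from 12.2 ± 5.9 to 3.81 ± 2.5 RPM (limma adjusted p = 0.0286). All values here are means ± SD over 3 libraries.

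Of 31 nuclear speckle and splicing factors, 18 were tested, and 1 was called higher and 2 lower in cAMP libraries, beside the 14.6% and 14.7% of all genes, with a median of 0.05. Son, a scaffold of nuclear speckles, fell from 468 ± 33.1 to 365 ± 43.1 RPM (log2 fold change -0.36, limma adjusted p = 0.00462), and Sf3b2, a subunit of the U2 snRNP, from 334 ± 19.3 to 249 ± 25.7 RPM. Tra2a, a splicing activator, rose from 31.9 ± 2.3 to 50.5 ± 5.7 RPM (limma adjusted p = 0.0222). Of 33 other long noncoding RNAs, 7 were tested, and 5 were called higher and 1 lower, beside the same shares of all genes, with a median of 0.74. The 3 largest increases were of hosts of small nucleolar RNAs, with Snhg8 rising from 39.6 ± 8.5 to 94.5 ± 13.1 RPM, Snhg12 from 17.2 ± 4.5 to 40.8 ± 3.9 RPM and Snhg7 from 8.18 ± 1.2 to 20.1 ± 8.3 RPM. The largest change was the decrease of Mir22hg, the host of miR-22, from 65.7 ± 5.3 to 9.45 ± 3.6 RPM (log2 fold change -2.73, limma adjusted p = 3.62e-08). None of the 7 genes tested of 21 for RNA 3′ ends and RNase P was called by limma or edgeR, and 0 had an unadjusted p under 0.05. Beside this stand the limma shares of 14.6% higher and 14.7% lower over all genes. In ΔSOX10 cells limma and edgeR called no gene of the 4 lists, where limma called 2.3% of all genes higher and 5.92% lower. Unadjusted p-values were under 0.05 for 4 of the 18 speckle and splicing factors and 1 of the 7 genes for 3′ ends, all with changes below 0, and for 0 of the other lists. The share of all genes with such p-values was not counted, so nothing is read from these counts. The medians of the lists ran from -0.37 to -0.05 against -0.18 over all genes.

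The genes whose summed level was most like that of Malat1 over the 14 libraries, by Pearson correlation of log2(RPM + 1) among 2100 genes averaging at least 10 RPM, were Isca2 (0.88), Utrn (0.87), Son (0.86), Hspa2 (0.85) and Chd2 (0.84). Son was at 534 RPM in nerve, 468 in control, 365 in cAMP, 169 in parental and 155 in ΔSOX10 libraries by group means, and thus shared the order of Malat1 in nerve and primary cells but not the higher level in ΔSOX10 cells. For Neat1 they were Pllp (0.96), Tmem17 (0.94), Fxyd6 (0.93), Chp2 (0.93) and Rhoj (0.92). Pllp, which encodes the myelin proteolipid plasmolipin, was at 991 RPM in nerve, 1.30 in control and 176 in cAMP libraries and near 0 in S16 cells. Malat1 and Neat1 had a correlation of 0.81 with each other, rank 10 among the genes compared with Malat1 and rank 24 among those compared with Neat1. The 14 points fall into 5 groups with large differences between them, so these values are a description only.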

How the data were processed

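The authors trimmed reads with cutadapt 1.14, mapped them to rn5 with STAR 2.5.2a, converted them with SAMtools 1.9, grouped the 5′ ends of reads into TSSs with Paraclu and tallied reads by featureCounts (Subread 1.6.1). The deposited values are RPM per TSS and library, scaled to whole libraries, for TSSs of nerve within 1 kb of H3K4me3 and SOX10 peaks and named by genes on the same strand. Log2 fold changes and FDR values of the authors' edgeR comparisons stand in the same table and were not used. Both genes and all lists were chosen with earlier results of these data known.

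Values above 1 RPM in at least 2 libraries of a comparison were tested as log2(RPM + 1) with limma 3.58.1 (trend) in R 4.3.3, each comparison over its own libraries, per TSS and per gene sum, with Benjamini-Hochberg adjustment over all of them and a threshold of 0.05. Fold changes on this scale understate those of low TSSs. SEs and p-values from limma borrow the spread of TSSs or genes of similar level. For Malat1 with cAMP, both the sum and TSS 1, that spread is narrower than its own. Low values were whole reads in all libraries within 0.1 read, which allowed edgeR 4.0.16 on recovered reads. Over all values above 0, 93.3% and 93.2% were whole in parental 1 and 2, and 94.3% and 94.6% in clones 1-1 and 1-2. The rest were rounded to whole reads. Nerve 2 had the fewest low values for this check, 53, and edgeR was not run for nerve. Shares and ratios were tested with exact permutation tests (scipy 1.17.1). The tests were tried on simulated data. For limma these data gave every TSS the same replicate spread, unlike the downstream TSSs here, so that nothing is read from the trial for them. Positions are 1-based. Named TSSs are the most upstream, the 4 highest by mean over the libraries and up to 3 called per comparison. Of each list, up to 4 called genes with the largest change are named. Control and cAMP numbers share no source. The primary cell libraries came from independent populations and the 2 parental libraries from separate RNA samples, whose spread may be technical. Alternatives were pseudocounts of 0.1 and 5, no filter, median-ratio scaling, edgeR, each library left out, a replicate block for cAMP, pairs of clones, and windows of 1 and 2 kb for the shares.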

Additional observations from a re-analysis of the deposited data

Results flagged for a closer look

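Neat1 TSS 1 in ΔSOX10 clone 1-1, at 22.7 RPM, lay far from the other 3 clones, which were at 39.7, 42.7 and 41.2 RPM, with a gap of 0.851 of the whole range of the 4 clones. It was 1 of 7 values compared in this way, and chance sets a sample apart in about 1 of 20 such groups. Clone 1-1 also had the lowest Malat1 sum of the 4 clones, at 1315 RPM, and the lowest share of Neat1 TSS 1, at 51.4% (95% Wilson interval within 2.39 percentage points). Its Sox10 TSSs were at 0.0255 RPM, and why it differs was not tested.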

How the results depend on the processing

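The changes of the summed Malat1 and Neat1 levels with cAMP kept their direction and their calls under all 12 alternatives each. All of these fits borrow spread across genes. The count of called TSSs of both genes with cAMP was 4 and ran from 2 to 3 with 1 library left out. Numbers shared by control and cAMP libraries do not pair them (correlations of deviations 0.029, 0.0075 and 0.038), and with the replicate block 4 TSSs of both genes were called, with 1020 instead of 982 over all TSSs. In ΔSOX10 cells the count rose from 0 to 1, Malat1 TSS 1, with a pseudocount of 5, with median-ratio scaling and with clones 2-1 and 2-2 only, and was 0 to 1 with 1 library left out. The Malat1 sum kept its direction but lost its call with a pseudocount of 0.1 (0.99), without the filter (0.99) and with clones 1-1 and 1-2 only (0.78), and ran from 0.84 to 1.19 with 1 library left out. Parental cells against nerve gave 77 called TSSs, 47 without the filter, and 14, 10, 34 and 31 without nerve 1, nerve 2, parental 1 and parental 2. The Malat1 to Neat1 ratio kept its direction in 7 alternatives per comparison, chosen after seeing the data, from -1.78 to -1.48 on the log2 scale with cAMP and from 0.57 to 0.93 in ΔSOX10 cells. The Neat1 share inside the SOX10 peak kept its direction in ΔSOX10 cells (4.54 percentage points within the first 2 kb, 0.18 to 5.46 with 1 library left out), whereas the other shares did not keep theirs under every alternative. Within the first 2 kb, the Malat1 share differed by 0.019 percentage points with cAMP and by -0.032 in ΔSOX10 cells. With 1 library left out it ran from -0.085 to 0.0741 and from -0.0046 to 0.28, and the Neat1 share with cAMP from -1.34 to 2.22. The lone sample left in a group was assumed to vary like the other group, shares then had no test, and the causes of these moves were not tested. Of the 105 TSSs of both genes, 38 passed the filter in the cAMP comparison and 29 in that of ΔSOX10 cells, and changes of the rest were not tested.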
